A study of Mus musculus with 15 samples.

Results

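Transcription factors that shape exhausted and effector CD8+ T cells were followed across 15 RNA-seq libraries of T cells taken from mouse tumours. The 10 genes were chosen by name: Tox, Eomes, Tbx21, Prdm1, Bhlhe40, Id2, Batf, Irf4, Ikzf3 and Zeb2. They are 10 of 21788 gene symbols listed in any library, and all 10 were listed in all 15 libraries.

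The tumour was E.G7, an EL4-derived T cell lymphoma line that makes ovalbumin (OVA), grown under the skin. Host mice were females of 6 to 8 weeks at inoculation, and cells were sorted on day 21, at an age of 9 to 11 weeks. Wild-type hosts were C57BL/6. The other hosts are labelled as knockouts (KO) of B7S1, an inhibitory relative of the PD-1 ligands encoded by Vtcn1. Entries for strain and genotype grow by 1 between successive libraries in places, as if filled down a column, so groups were taken from the titles. A bulk pair of OVA-specific CD8+ T cells consists of 1 library from wild-type hosts and 1 labelled KO, with 6 mice per group. The sorted libraries held PD-1-positive CD8+ T cells in 3 populations. TIM-3_SP cells carried Tim-3 without the B7S1 receptor (B7S1R), B7S1R_SP cells carried the receptor without Tim-3, and DN cells carried neither. Wild-type hosts are represented by 2 libraries of every population, which carry the numbers 1 and 2, and hosts labelled KO by 1. Nothing in the labels says that libraries 1 and 2, or the 3 populations, came from separate mice. P-values therefore measure the spread between these samples only. A further 4 libraries from wild-type hosts are titled Control, anti_B7S1, anti_PD1 and combo. Their antibody doses, schedules and sort gate were not given, the treatment entry reads none, and there was 1 library per group.

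In tumours and chronic infection, CD8+ T cells that meet antigen for long pass from stem-like cells, which keep TCF-1 (Tcf7) and Id3, to exhausted cells with inhibitory receptors and killing molecules. Tox, an HMG-box factor, sets up the exhausted chromatin state. Eomes and T-bet (Tbx21) are related T-box factors whose balance shifts along that path. Blimp-1 (Prdm1), Id2 and Zeb2 favour terminal effector differentiation, while Batf and Irf4 bind DNA together downstream of the T cell receptor. Bhlhe40 is a receptor-induced repressor that supports cytokine production, and Aiolos (Ikzf3) belongs to the Ikaros zinc finger family.

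Values were RPKM in the bulk pair and FPKM elsewhere, both scaled to transcript length and library size, and the depth of the FPKM libraries is unknown. The files form 4 tables that list different genes, and the wild-type libraries numbered 1 stand in another table than those numbered 2 and those labelled KO. Means, orders and fits over all 9 sorted libraries therefore cross 2 tables. All 10 CD8 T cell markers (the T cell receptor complex, CD8 and related genes) were at 1 or more in every library. Their summed level was 2181 FPKM in B7S1R_SP labelled KO, 2417 in B7S1R_SP wild type 2 and 3510 in DN labelled KO, against 5019 to 9104 in the other sorted libraries. The tumour line is itself of T cell origin, so these markers need not tell host T cells from tumour cells. Carry-over of tumour cells, and its part in the differences below, was not tested. Myeloid markers summed to 7303 FPKM in B7S1R_SP labelled KO, with 16 of 16 at 1 or more, and to between 499 and 2236 in the other sorted libraries. Without Cst3 these sums were 6703 and 164 to 734. Dendritic and class II markers summed to 2146 FPKM in B7S1R_SP wild type 1 and 2618 in B7S1R_SP labelled KO, and to 65.5 to 479 in the others. Globin transcripts made up 1.13% to 9.71% of the total in the wild-type libraries numbered 2 and at most 0.0136% in those labelled KO. Of the globin genes summed, only Hba-a2 was listed in the wild-type libraries numbered 1, so their globin share is not known. Vtcn1 went against the KO labels, at 0.0687 RPKM in bulk wild type and 9.46 in bulk labelled KO. It was listed at 0 FPKM in the sorted wild-type libraries numbered 2 and at 0.16 to 2.5 in those labelled KO. Pdcd1, which encodes PD-1, was at 3.17, 17.72 and 12.08 FPKM in B7S1R_SP, TIM-3_SP and DN labelled KO. In B7S1R_SP wild type 2 it was at 28.52, against 83.8 to 488.69 in the other wild-type sorted libraries. All these cells were sorted as PD-1-positive, and the part of this difference in the results below was not tested. In bulk RNA of a sorted pool, fewer cells expressing a gene and less RNA per cell cannot be told apart.

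Over the 9 sorted libraries the 10 factors spanned a wide range of levels. Id2 had the highest mean at 1162 FPKM, at percentile 98.6 of 10178 genes, followed by Bhlhe40 at 281, Batf at 197 and Tox at 103. Ikzf3 averaged 21.7 FPKM, Eomes 16.2, Tbx21 9.65, Irf4 4.85, Prdm1 3.62 and Zeb2 1.89. The ranges over the 9 libraries overlapped for every neighbouring pair in this order. Zeb2 stood lowest, at percentile 12.1, with values of 0.34 to 5.47 FPKM.

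**Figure D1:**
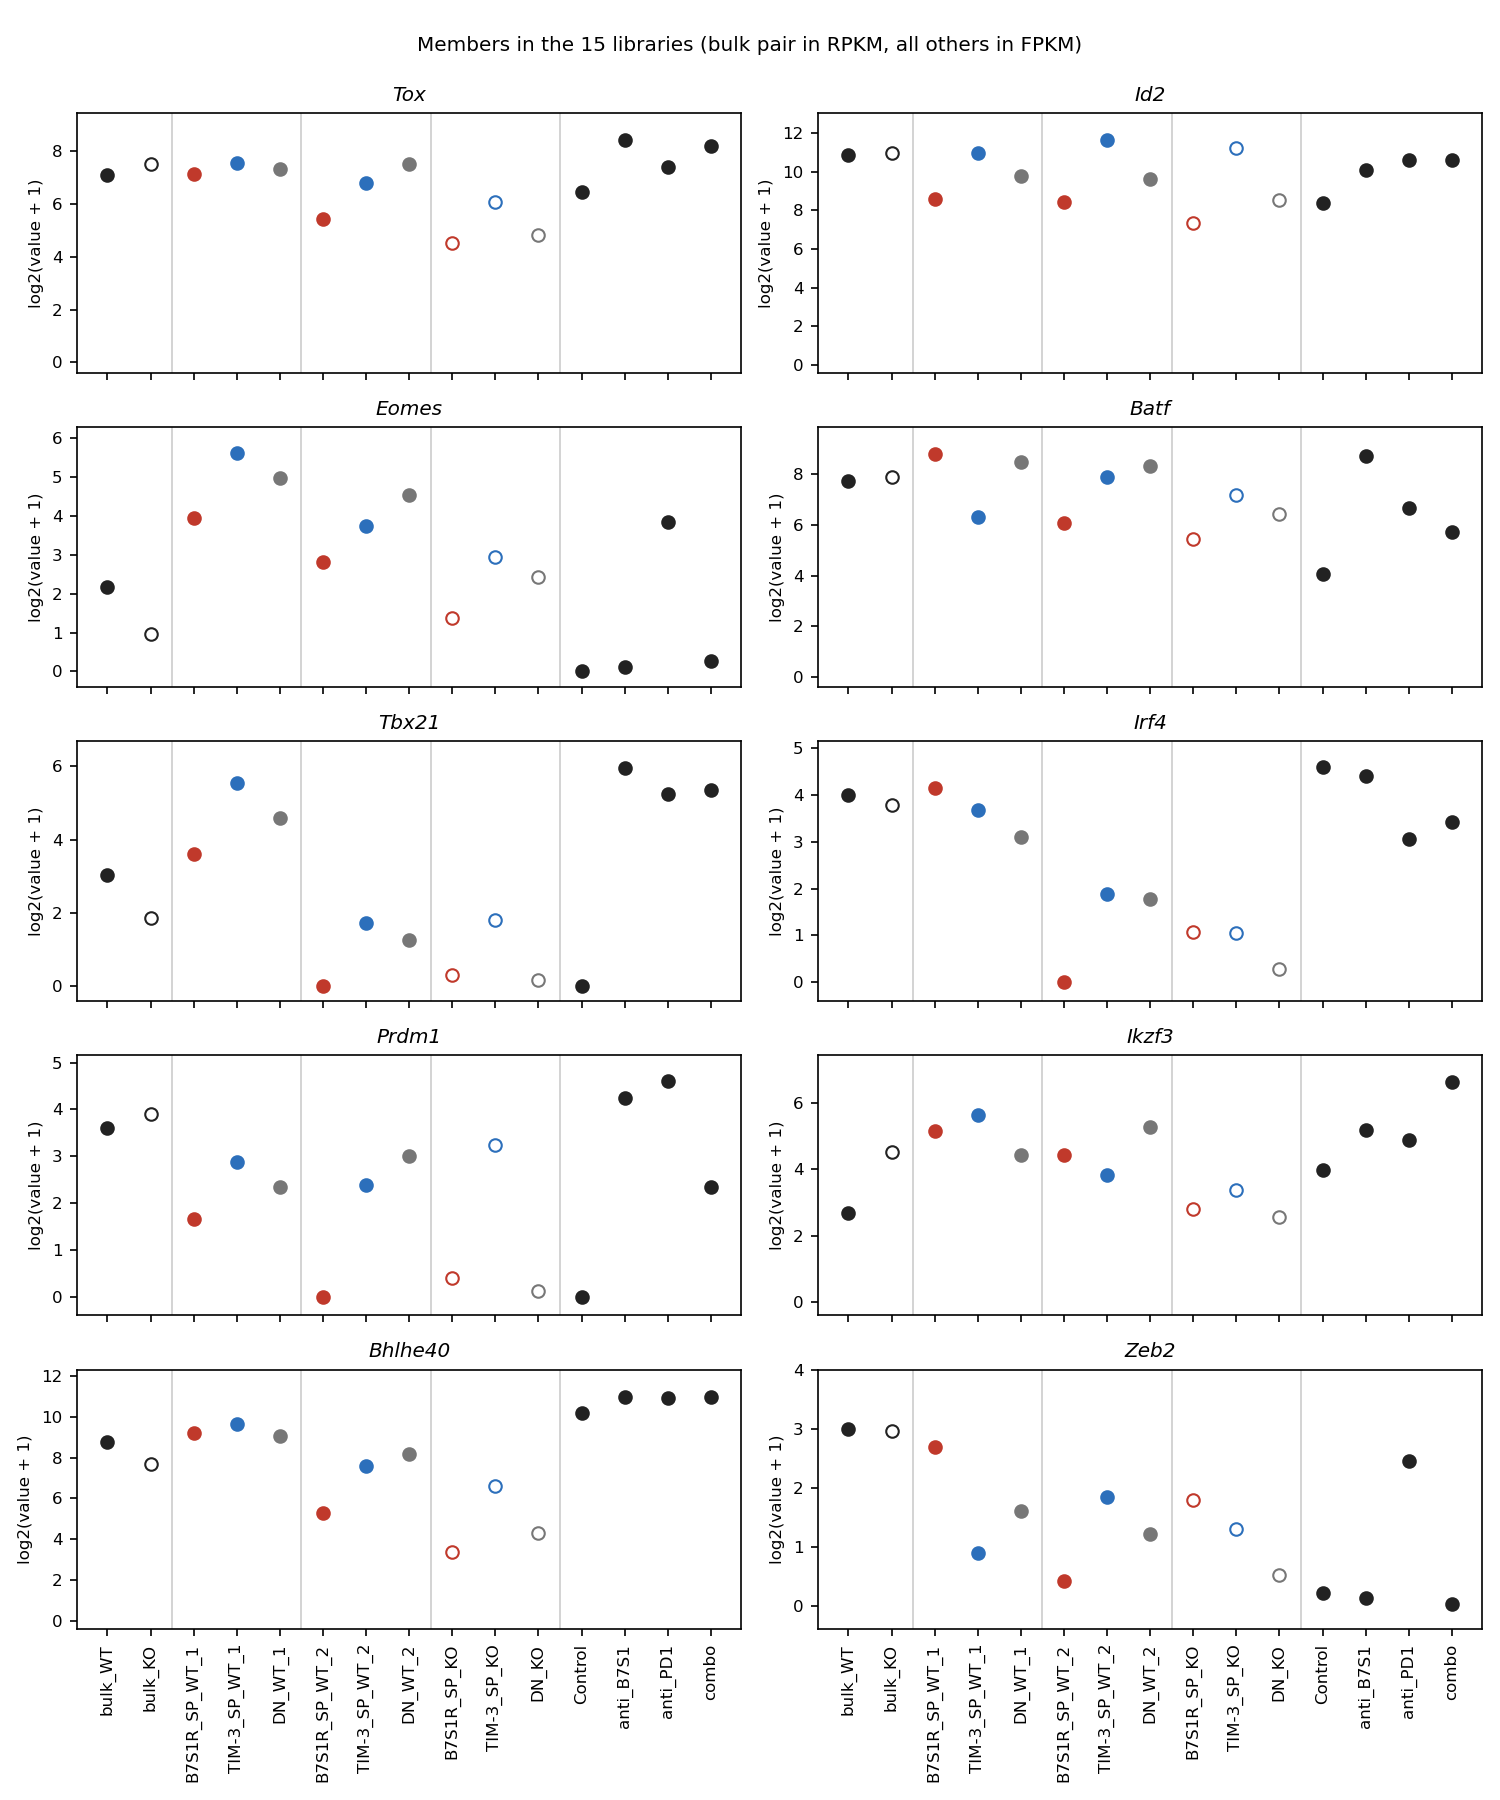
Level of each of the 10 transcription factors in each of the 15 libraries, as log2(value + 1), with RPKM in the bulk pair and FPKM elsewhere (red B7S1R_SP, blue TIM-3_SP, grey DN, black unsorted by population, open circles labelled KO, lines between sets). Id2 stands at 1969.9, 3195 and 2365 FPKM in the 3 TIM-3_SP libraries, above all other sorted libraries, and Eomes, Tbx21 and Prdm1 are listed at 0 in Control.

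Id2 separated the sorted populations. Id2 protein binds E proteins, such as those encoded by Tcf3 and Tcf12, and keeps them off DNA, and its close relative Id3 is the form kept in stem-like and memory cells. Id2 measured 1969.9 FPKM in TIM-3_SP wild type 1, 3195 in wild type 2 and 2365 in the library labelled KO. In DN it measured 871, 795 and 373 FPKM in the same order, and in B7S1R_SP 385, 344 and 164. The 3 TIM-3_SP libraries thus lay above the 6 others without overlap, an order that 1.22% of 10178 genes showed, and none of the other 9 factors did. Within each set of 3 populations that share a number or label, DN lay between TIM-3_SP and B7S1R_SP.

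Wild-type means were 2582 ± 866 FPKM in TIM-3_SP, 833 ± 54.0 in DN and 365 ± 28.4 in B7S1R_SP (SD, n = 2). B7S1R_SP minus TIM-3_SP differed by -2.35 in set 1, -3.21 in set 2 and -3.84 in the set labelled KO on the log2(FPKM + 1) scale, used for all differences below. Across the 6 wild-type libraries, limma without a block for the replicate number gave -2.78 ± 0.53 (SE) and an adjusted p of 0.211. That fit called 6 of 10411 genes (0.0576%), all lower in B7S1R_SP, and no member. No label says that equal numbers mark a pair, and the numbers also separate the tables, so the replicate block is a block by table. With it Id2 fell by 2.78 ± 0.54, with an adjusted p of 0.00882 in limma, as 1 of 31 genes that fell (0.298%). Over all 9 libraries with the block the difference was -3.14 ± 0.33, with a limma adjusted p of 0.000864, as 1 of 165 genes called (1.62%) and of 85 that fell (0.835%).

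The CD8 T cell markers moved in the same direction as Id2, at 5019, 2417 and 2181 FPKM in B7S1R_SP against 7337, 9104 and 6761 in TIM-3_SP. Dividing each library by this sum, an alternative chosen after the values were seen, moved the median of all genes in B7S1R_SP minus TIM-3_SP to 1.28 over 9 libraries with the block. Id2 was then at -1.77, with a limma adjusted p of 0.00931, as 1 of 3719 genes called (35.6%) and of 74 that fell (0.709%). Over the 6 wild-type libraries with the block and this scaling it was at -1.55, with an adjusted p of 0.211. With only the B7S1R_SP library of set 1 kept, which had the highest CD8 marker sum of the 3, the blocked difference was -2.74 and the adjusted p 0.0874, and 13 genes were called (0.127%). Dendritic and class II markers moved with the contrast, at 2146, 174 and 2618 FPKM in B7S1R_SP (H2-Aa at 325, 17.6 and 871) against 84.9, 65.5 and 106 in TIM-3_SP (H2-Aa at 5.01, 2.6 and 6.68). The dendritic genes on that list had no common direction. Zbtb46 was at 0, 0 and 0 FPKM in B7S1R_SP against 0, 2.98 and 0.55 in TIM-3_SP, and Itgax at 0, 0 and 0.48 against 0.34, 0.04 and 0. Xcr1 was at 17.95, 0.3 and 0.51 against 21.29, 2.43 and 1.21. Flt3, not listed in set 1, was at 1.94 in set 2 and 2.63 in the set labelled KO, against 0.01 and 0.27. With the block, Lyz2 and H2-Aa were higher in B7S1R_SP by 4.36 ± 0.88 and 4.07 ± 0.94 (limma adjusted p 0.0139 and 0.0376). Their part in the Id2 difference was not tested.

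TIM-3_SP also had more Id2 than DN in every set, by 1.18, 2.01 and 2.66. Without the block, limma gave 1.59 ± 0.53 with an adjusted p of 1.00, and called none of 10411 genes (0.0%), with 316 at an unadjusted p under 0.05. The block over these 6 libraries left the adjusted p at 0.436, with 26 genes called (0.25%), and all 9 libraries without it at 0.114. Over 9 libraries with the block, Id2 rose by 1.95 ± 0.33 with a limma adjusted p of 0.0366, as 1 of 12 genes that rose (0.118%). Scaled to the CD8 markers, that difference was 1.498 with an adjusted p of 0.14, and 51 of 10434 genes were called (0.489%). B7S1R_SP minus DN was -1.18, -1.20 and -1.18 in the 3 sets. That contrast was at -1.19 ± 0.53 in limma with an adjusted p of 1.00, none of 10411 genes were called (0.0%) and 274 had an unadjusted p under 0.05. After CD8 marker scaling it was -0.16, with an adjusted p of 0.942.

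Id3 ran the other way. It measured 2.72, 2.34 and 19.7 FPKM in TIM-3_SP, against 169, 48.0 and 59.4 in DN and 77.6, 40.8 and 50.5 in B7S1R_SP, with no overlap. Id2 therefore exceeded Id3 by a ratio of 724, 1365 and 120.1 in TIM-3_SP, of 5.16, 16.6 and 6.28 in DN and of 4.95, 8.43 and 3.24 in B7S1R_SP. With the replicate block Id3 fell by 4.70 ± 0.71 between DN and TIM-3_SP, at a limma adjusted p of 0.000781, and was 4.02 ± 0.71 higher in B7S1R_SP than in TIM-3_SP, at 0.00352. Tcf7, which encodes the stem-like factor TCF-1, measured 12.1, 7.36 and 15.7 FPKM in TIM-3_SP and 75.6 to 168 in the 6 other sorted libraries. All 3 TIM-3_SP libraries lay below the 6 others in 3.84% of all genes, Id3 and Tcf7 included. Its blocked differences were -3.66 ± 0.61 for TIM-3_SP minus DN and 3.52 ± 0.61 for B7S1R_SP minus TIM-3_SP, at limma adjusted p of 0.00307 and 0.00299. Without the block neither gene passed, at adjusted p of 0.238 and 0.29 for Id3 and 0.255 and 0.183 for Tcf7.

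**Figure D2:**
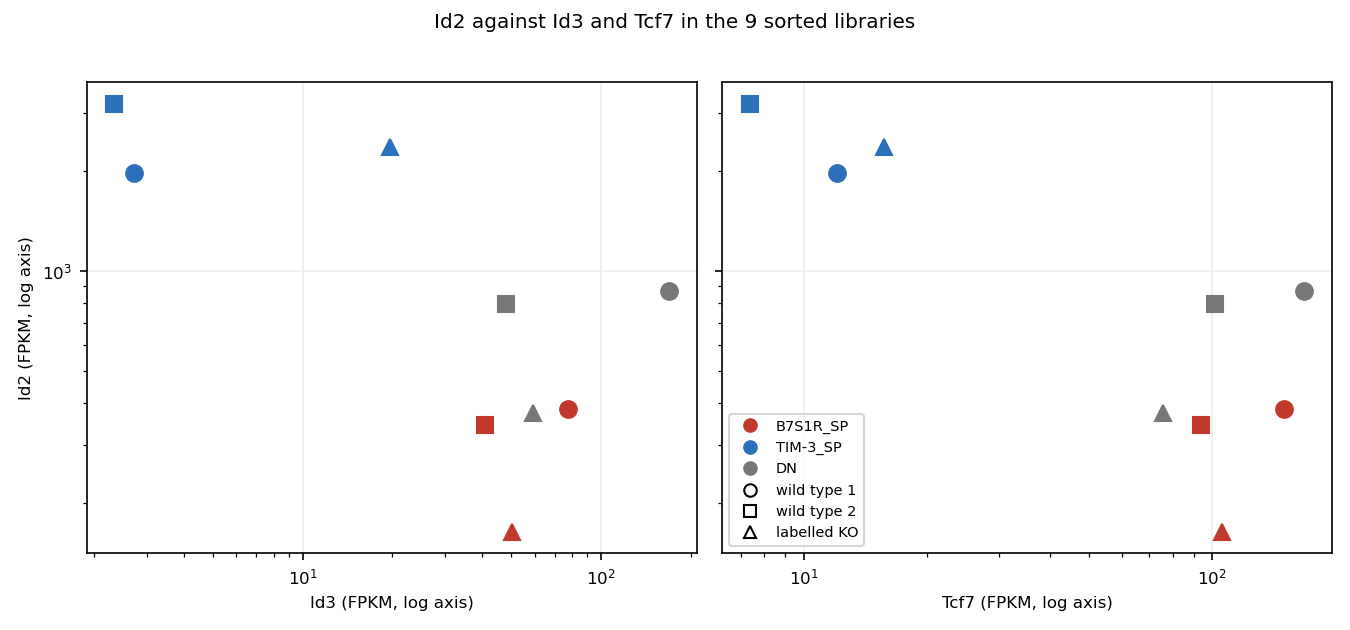
Id2 (vertical, FPKM, log axis) against Id3 (left) and Tcf7 (right, both FPKM, log axes) in the 9 sorted libraries, 1 point per library, coloured by population and shaped by set. The 3 TIM-3_SP points stand alone at the upper left, with Id3 at 2.72, 2.34 and 19.7 FPKM.

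The Id2 gene lies on chr12:25093799-25097140 (mm10, GENCODE vM21, minus strand) and Id3 on chr4:136143497-136145755 (plus strand), both protein-coding. Their promoter windows, 250 bases before to 50 after the RefSeq start on GRCm38.p6, are shown because the genes run opposite ways and because their products act on proteins that bind the E-box, CANNTG. Capitals mark every E-box, searched on both strands, which read alike. Both RefSeq starts lie inside the GENCODE genes. The first window is chr12:25096043-25096342 (minus strand) and the second chr4:136143572-136143871 (plus strand).

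Id2: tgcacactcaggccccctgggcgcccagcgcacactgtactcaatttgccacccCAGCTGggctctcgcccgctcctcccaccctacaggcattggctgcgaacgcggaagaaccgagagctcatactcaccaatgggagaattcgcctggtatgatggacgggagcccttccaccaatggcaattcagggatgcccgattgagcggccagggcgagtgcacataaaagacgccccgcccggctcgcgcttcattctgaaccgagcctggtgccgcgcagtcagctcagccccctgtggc
Id3: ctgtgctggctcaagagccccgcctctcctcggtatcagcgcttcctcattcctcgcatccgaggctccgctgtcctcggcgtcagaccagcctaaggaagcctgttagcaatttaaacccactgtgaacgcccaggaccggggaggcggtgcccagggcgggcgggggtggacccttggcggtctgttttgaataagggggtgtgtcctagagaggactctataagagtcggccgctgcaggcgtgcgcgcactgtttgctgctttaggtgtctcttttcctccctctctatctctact

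The Id2 window holds 1 E-box, CAGCTG, which begins 196 bases before the start, and the Id3 window holds none. An E-box is common, found in 72.3% of 32851 windows of this length. Among the 7 members with a window it was also found in those of Tbx21, Prdm1, Batf and Irf4, and not in those of Eomes and Zeb2. The narrower form CACGTG, itself an E-box and the preferred site of Bhlhe40, was found in none of the 7 members and in 7.15% of all windows. No match says only that these letters are not in this window.

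The T-box factors were lowest or nearly lowest in B7S1R_SP. Eomes, which supports memory and exhausted CD8+ T cells, measured 48.0, 12.3 and 6.75 FPKM in TIM-3_SP, in the order wild type 1, wild type 2 and labelled KO. In B7S1R_SP it measured 14.4, 6.02 and 1.58 FPKM and in DN 30.4, 22.1 and 4.44. B7S1R_SP was the lowest population in every set, but values of different sets overlapped widely.

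T-bet (Tbx21) drives interferon and cytotoxic genes. It measured 46.0, 2.3 and 2.53 FPKM in TIM-3_SP, 22.9, 1.39 and 0.14 in DN and 11.2, 0 and 0.25 in B7S1R_SP. Set 1 was thus far above the others in every population, and within each set TIM-3_SP was highest. The ratio of Eomes to Tbx21 was 1.28, 1.04 and 1.33 in the B7S1R_SP, TIM-3_SP and DN libraries of set 1, while in sets 2 and KO it was between 2.67 and 31.7 where Tbx21 was listed above 0.

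B7S1R_SP minus TIM-3_SP was -1.67, -0.93 and -1.59 for Eomes and -1.94, -1.72 and -1.50 for Tbx21. In limma over the wild-type libraries these contrasts were -1.30 ± 0.88 and -1.83 ± 1.67, both with an adjusted p of 0.999. In each population the gap of Tbx21 between wild-type libraries 1 and 2 was wider than any gap between populations within a set. For Eomes, B7S1R_SP minus DN was -1.03, -1.72 and -1.08, at -1.37 ± 0.88 in limma with an adjusted p of 1.00.

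Tox measured 185, 109 and 65.5 FPKM in TIM-3_SP, 159.9, 179.6 and 27.3 in DN and 139, 41.8 and 22.2 in B7S1R_SP. It was lowest in B7S1R_SP in each set, while TIM-3_SP and DN changed places between sets. B7S1R_SP minus TIM-3_SP was -0.41, -1.37 and -1.52, and limma gave -0.89 ± 0.68 with an adjusted p of 0.999. When libraries were divided by their CD8 markers the sign turned, to 0.33.

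Blimp-1 (Prdm1), a repressor that promotes terminal differentiation, measured 6.3, 4.22 and 8.48 FPKM in TIM-3_SP and 2.14, 0 and 0.31 in B7S1R_SP. TIM-3_SP lay above B7S1R_SP in every set, by 1.22, 2.38 and 2.86, an order that 13.9% of all genes showed. DN spread from 0.09 in the library labelled KO to 4.07 and 6.99 in wild type 1 and 2. The B7S1R_SP minus TIM-3_SP contrast was -1.80 ± 1.07 in limma, with an adjusted p of 0.999.

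Bhlhe40 measured 784, 193 and 95.3 FPKM in TIM-3_SP, 532, 283 and 19.2 in DN and 578, 38.0 and 9.32 in B7S1R_SP. All 3 values of set 1 lay above the 6 others, whatever the population. B7S1R_SP minus TIM-3_SP was -0.44, -2.32 and -3.22, and limma gave -1.38 ± 1.11 with an adjusted p of 0.999.

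With Id2, these 5 factors made 6 of 10 members that were lower in B7S1R_SP than in TIM-3_SP in all 3 sets, an order that 13.9% of all genes showed, and none was higher in all 3 sets (24.7% of all genes). Tbx21 and Prdm1 were listed at 0 in B7S1R_SP wild type 2. The size of their set 2 difference from TIM-3_SP therefore rests on the 1 added before the log. The members' median in that contrast was -1.09, against 0.16 for all genes tested. After CD8 marker scaling over the wild-type libraries, the differences were -0.17 for Eomes, -1.35 for Tbx21, -1.31 for Prdm1 and -0.16 for Bhlhe40, beside a median of all genes of 1.16. Lower than DN in all 3 sets were 3 members, Tox, Eomes and Id2, against 14.0% of all genes. Above DN in TIM-3_SP in all 3 sets were Tbx21, Id2 and Irf4, against 8.61% of all genes.

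**Figure D3:**
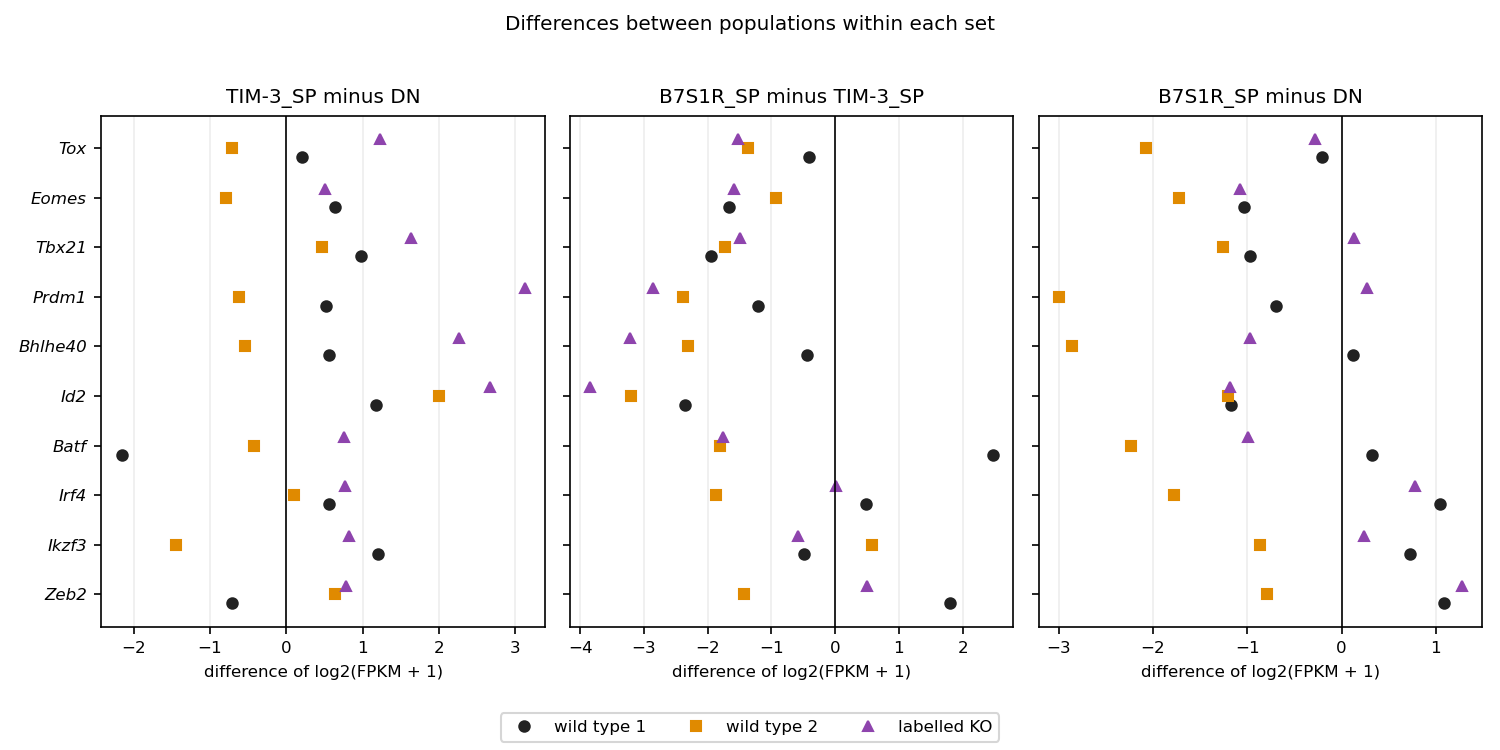
Differences of log2(FPKM + 1) between populations for each member, 1 point per set of libraries (set 1, set 2 and the set labelled KO). In B7S1R_SP minus TIM-3_SP the points of Tox, Eomes, Tbx21, Prdm1, Bhlhe40 and Id2 all lie below 0, while those of Batf lie at 2.48, -1.81 and -1.75.

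Prdm1 and Eomes carry windows with motifs that are rarer than the E-box. They are shown for the site of AP-1, TGANTCA, the kind of site that Batf binds with Jun proteins, and for the site of interferon regulatory factors, GAAA, 2 bases of any kind and GAAA again, the kind that Irf4 reads. Both strands were searched and capitals mark the match. The Prdm1 window is chr10:44458699-44458998 (minus strand), inside a gene annotated on chr10:44437177-44528501, and the Eomes window is chr9:118477939-118478238 (plus strand), at the start of a gene on chr9:118478212-118486132.

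Prdm1: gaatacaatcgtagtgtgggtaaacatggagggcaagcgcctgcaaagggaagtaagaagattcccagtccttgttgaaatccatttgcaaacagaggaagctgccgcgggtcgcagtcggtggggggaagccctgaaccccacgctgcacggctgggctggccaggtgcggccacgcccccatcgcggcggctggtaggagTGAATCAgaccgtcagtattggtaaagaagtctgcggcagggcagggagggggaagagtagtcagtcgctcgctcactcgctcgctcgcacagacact
Eomes: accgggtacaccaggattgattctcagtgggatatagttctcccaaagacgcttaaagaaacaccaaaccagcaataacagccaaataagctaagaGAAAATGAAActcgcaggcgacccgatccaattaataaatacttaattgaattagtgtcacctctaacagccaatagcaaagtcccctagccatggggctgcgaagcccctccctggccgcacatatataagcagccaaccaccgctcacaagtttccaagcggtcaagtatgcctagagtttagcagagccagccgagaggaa

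The Prdm1 match, TGAATCA, begins 48 bases before the start, and an AP-1 site was found in 7.81% of all windows. Of the 7 members with a window, Prdm1 held one and so did 1 of the 4 windows of Zeb2. The Eomes match, GAAAATGAAA, begins 154 bases before the start, and that motif was found in 3.44% of all windows and in no other member with a window. Neither the cyclic AMP element TGACGTCA (1.79% of windows) nor the TCF site CTTTGA (16.0%) was found in any of the 7. A match describes letters, not a bound site.

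Batf kept no order of populations in every set, and Irf4 kept only TIM-3_SP above DN. Batf, a leucine zipper factor without an activation domain of its own, measured 79.3, 237 and 144 FPKM in TIM-3_SP, 357, 318 and 84.8 in DN and 447, 66.9 and 42.0 in B7S1R_SP. B7S1R_SP stood above TIM-3_SP in set 1 by 2.48 and below it in set 2 and the set labelled KO by 1.81 and 1.75. TIM-3_SP minus DN was -2.16, -0.42 and 0.76, and limma gave -1.29 ± 0.87 with an adjusted p of 1.00.

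Irf4, whose level rises with the strength of receptor signalling, measured 11.8, 2.67 and 1.07 FPKM in TIM-3_SP, 7.62, 2.43 and 0.22 in DN and 16.8, 0 and 1.09 in B7S1R_SP. Within the sets labelled 2 and KO no value exceeded 2.67. TIM-3_SP minus DN was 0.56, 0.10 and 0.76, at 0.33 ± 1.43 in limma with an adjusted p of 1.00.

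Aiolos (Ikzf3) measured 48.4, 13.3 and 9.41 FPKM in TIM-3_SP, 20.4, 37.8 and 4.87 in DN and 34.4, 20.4 and 5.92 in B7S1R_SP. Populations changed order between sets. Zeb2, which acts with T-bet in terminal effector cells, measured 0.86, 2.6 and 1.46 FPKM in TIM-3_SP, 2.05, 1.32 and 0.43 in DN and 5.47, 0.34 and 2.46 in B7S1R_SP, with no order that repeated in all sets.

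Neighbouring genes of the same networks were read from lists chosen with earlier results known. Of 12 effector targets, genes such as Gzmb, Ifng and Prf1 that T-box factors and Blimp-1 are known to act on, 2 fell in B7S1R_SP against TIM-3_SP without the block, with Gzmb at -8.56 ± 0.86 and Ifng at -4.55 ± 0.58 (limma adjusted p 0.00729 and 0.0299), against 0.0576% of all genes. With the block 4 fell, Ccl5 and Prf1 besides, against 0.298% of all genes. The list's median in B7S1R_SP minus TIM-3_SP was -2.58. Of 8 stem-like counterparts Tcf7 alone rose with the block, against 0.327% of all genes, and the list's median was 1.43. Of 18 family relatives tested, Id3 alone rose with the block, and none of 13 DNA-binding partners and none of 7 inhibitory receptors passed. Over 9 libraries with the block, 7 effector targets fell (Fasl, Il2rb and Klrd1 besides), with a list median of -3.13, and 3 of 7 inhibitory receptors fell (Cd244, Ctla4 and Tigit), against 0.835% of all genes. Myb rose beside Tcf7 and Id3 there, against 0.786% of all genes. In TIM-3_SP minus DN the same fit had Gzmb and Ifng higher and Id3 and Tcf7 lower, against 0.118% of all genes each way. In B7S1R_SP against DN, Gzmb fell with the block, at -4.23 ± 0.65 with a limma adjusted p of 0.00926.

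Relatives with low or uneven values included Tox2, which was at most 3.11 FPKM in the sorted libraries, and Batf3, at 8.54 in B7S1R_SP wild type 1, 6.58 in B7S1R_SP labelled KO and at most 1.76 in the other sorted libraries. The libraries with most Batf3 also had the highest dendritic and class II marker sums, at 2146 and 2618 FPKM. Which cells held Batf3 was not tested. Irf8 was highest in TIM-3_SP wild type 1 at 195 FPKM and lowest in B7S1R_SP wild type 2 at 3.24. Ikzf2 ran from 4.81 to 14.8 FPKM in the sorted libraries and Zeb1 from 0.28 to 3.46. In each set Zeb1 was lowest in TIM-3_SP, at 1, 0.28 and 0.42 FPKM.

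Libraries labelled KO had less of most members than the wild-type libraries of the same population. This comparison bears on B7S1 in the host, but Vtcn1 went against the labels and there was 1 library per population. Ikzf3 was at 5.92, 9.41 and 4.87 FPKM in B7S1R_SP, TIM-3_SP and DN labelled KO, all below the lowest wild-type library at 13.3. No other member separated in this way, and 6.42% of all genes did. Tox at 22.2, 65.5 and 27.3 FPKM, Eomes at 1.58, 6.75 and 4.44, and Bhlhe40 at 9.32, 95.3 and 19.2 were each below both wild-type libraries of their population. With Ikzf3 these were 4 of 10 members, against 14.7% of all genes, and no member was above both wild-type libraries throughout (6.46% of all genes).

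Over all 9 libraries, with the population as a covariate, limma gave -3.38 ± 0.78 for Bhlhe40, -2.01 ± 0.53 for Eomes, -1.88 ± 0.50 for Ikzf3 and -1.81 ± 0.44 for Tox, each with an adjusted p of 0.168. None of 10178 genes were called (0.0%), while 1638 had an unadjusted p under 0.05. Tbx21 was at -2.01 ± 1.07, Irf4 at -1.63 ± 0.88, Batf at -1.31 ± 0.62, Id2 at -0.80 ± 0.31, Prdm1 at -0.79 ± 0.70 and Zeb2 at -0.25 ± 0.64, at adjusted p from 0.256 to 0.856. The median of the 10 was -1.72, against -0.41 for all genes.

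Part of that gap lay between the wild-type libraries numbered 1 and 2. These also stand in different tables, and the part of the table cannot be told apart from that of the samples. Wild type 2 was below wild type 1 in all 3 populations for Eomes, Tbx21, Bhlhe40 and Irf4, as for 29.9% of all genes. The fit within the table that holds wild type 2 and the libraries labelled KO has 1 library per genotype and population. Its SE and p-values therefore rest on how the difference varied between populations, not between mice. The differences were -2.25 ± 0.48 for Bhlhe40, -1.60 ± 0.48 for Ikzf3, -1.44 ± 0.45 for Eomes, -1.43 ± 0.41 for Tox, -1.09 ± 0.32 for Batf and -0.86 ± 0.27 for Id2. Their limma adjusted p ran from 0.156 to 0.228, and no member was among the 10 of 10097 genes called (0.099%), all lower. Irf4 at -0.42, Prdm1 at -0.54 and Tbx21 at -0.22 moved toward 0, and Zeb2 was at 0.04. The members' median was -0.98, against -0.16 for all genes.

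Here 6 members were lower in all 3 populations labelled KO, namely Tox, Eomes, Bhlhe40, Id2, Batf and Ikzf3, against 23.4% of all genes, and none was higher in all 3 (13.8%). All 10 members were lower in DN, as were 63.2% of all genes, with a members' median of -1.99 against -0.38 for all genes. TIM-3_SP had 8 lower (52.4% of all genes), with medians of -0.63 and -0.038. B7S1R_SP had 6 lower (49.9%), with medians of -0.77 and 0.0. In DN, Bhlhe40 differed by -3.81, Prdm1 by -2.87, Ikzf3 by -2.72 and Tox by -2.67. In TIM-3_SP, Bhlhe40 differed by -1.01 and Prdm1 by 0.86. With 1 library labelled KO per population, the test that follows takes its spread only from wild-type libraries 1 and 2. These stand in different tables, so that test cannot decide whether the difference varied. Whether the genotype difference varied between populations was tested as an interaction, and the members' unadjusted p ran from 0.255 to 0.936, with 0 of 10178 genes called (0.0%) and 41 at an unadjusted p under 0.05.

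CD8 T cell markers were also lower in libraries labelled KO than in wild type 2, at 3510 against 6351 FPKM in DN, 6761 against 9104 in TIM-3_SP and 2181 against 2417 in B7S1R_SP. Scaled to them within the table, Bhlhe40 was at -1.80, Ikzf3 at -1.20, Eomes at -1.10, Tox at -0.97, Batf at -0.62 and Id2 at -0.39, beside a median of all genes of 0.23. One library changed the calls: without B7S1R_SP wild type 2, limma over 8 libraries called 737 of 10217 genes (7.21%), of which 484 fell (4.74%). Bhlhe40 by 3.87, Eomes by 2.17, Tox by 2.05 and Ikzf3 by 1.97 then fell, at adjusted p of 0.0164, 0.0364, 0.0164 and 0.0458. That fit leans further on the wild-type libraries numbered 1, which stand in another table than those labelled KO. Leaving out any other library gave at most 4 calls, and within the table none of these members passed. Of the lists, inhibitory receptors held 1 gene of 7 that fell within the table, Pdcd1, at -2.80 ± 0.35 with an adjusted p of 0.0335. It encodes PD-1, the protein for which these cells were sorted.

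**Figure D4:**
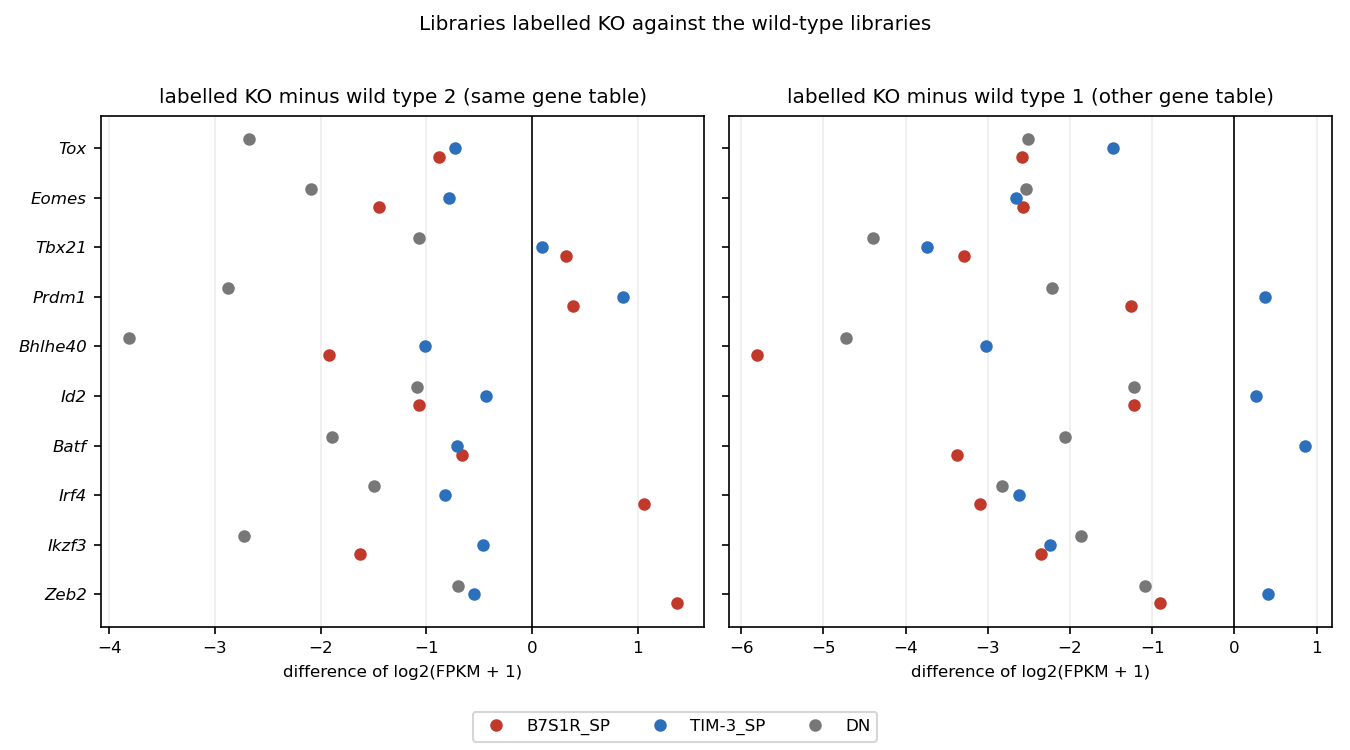
Differences of log2(FPKM + 1) between the library labelled KO and wild type 2 (left, same table) or wild type 1 (right, other table), 1 point per population. In the left panel all 3 points of Tox, Eomes, Bhlhe40, Id2, Batf and Ikzf3 lie below 0, with Bhlhe40 in DN at -3.81.

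Bulk OVA-specific cells, with 1 library per group, gave another picture for some members. The RPKM values of 88.6% of 5432 genes under 1 RPKM had ratios that fitted whole reads, with totals of 11095267 reads in wild type and 12050352 in the library labelled KO. Read counts for the members are inferred from their values. The check above used fraction terms up to 100 and does not establish the members' counts. Those also rest on a common factor, chosen so that the implied transcript length came nearest an annotated one. For Ikzf3 the implied length was 4098 bases and the annotated one 3658, and for Bhlhe40 both were 3113. Intervals below are exact 95% intervals of the ratio that cover counting error only, because PCR copies were not told apart, and they say nothing of spread between mice. Their width depends on the inferred counts. Ikzf3 had 249 reads (5.48 RPKM) in wild type and 1089 (22.1) in the library labelled KO, a log2 ratio of 2.01 (1.81 to 2.21). This is the opposite sign to the sorted libraries.

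The T-box factors were lower in bulk labelled KO. Eomes had 147 reads (3.55 RPKM) against 43 (0.956), a log2 ratio of -1.89 (-2.42 to -1.39). Tbx21 had 205 reads (7.24 RPKM) against 82 (2.67), a log2 ratio of -1.44 (-1.83 to -1.06). Bhlhe40 had 14708 reads (426 RPKM) against 7797 (208), a log2 ratio of -1.03 (-1.07 to -0.99). Eomes and Bhlhe40 were below wild type 2 in all 3 sorted populations labelled KO too, whereas Tbx21 was above it in B7S1R_SP and TIM-3_SP, by 0.32 and 0.10.

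The remaining members differed by less. Tox had 134 RPKM against 180.02, a log2 ratio of 0.42 (0.37 to 0.48), and Prdm1 11.1 against 13.9, a ratio of 0.33 (0.18 to 0.48). Id2 stood at 1886 and 2007 RPKM, Batf at 213 and 239.96, Irf4 at 14.99 and 12.8 and Zeb2 at 6.99 and 6.82. The interval of Zeb2, from -0.19 to 0.11, holds 0.

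By a rule of a difference of at least 1 in log2(RPKM + 1) and at least 5 RPKM in the higher library, Tbx21 and Bhlhe40 were lower, as 12.1% of 6075 genes were, and Ikzf3 was higher, as 10.7% were. Eomes passed the difference at -1.22 but not the level. The members' median over the 9 at that level was 0.03. The relatives Irf8 (134 and 56.2 RPKM), lower in the library labelled KO, and Ikzf2 (24.6 and 41.2) and Zeb1 (6.27 and 9.09), higher, stood beside them. Batf3 had 28 reads in wild type and 1 in the library labelled KO, a log2 ratio of -4.93 (-10.3 to -2.33). Myeloid markers, 13 of 16 of them listed, summed to 4108 RPKM in wild type and 2021 in the library labelled KO, of which Cst3 gave 3906 and 1796. Without Cst3 the sums were 202 and 226 RPKM, with Lyz2 at 0.171 and 9.81, and CD8 T cell markers summed to 9706 and 11326. Their part in these differences was not tested. Of 11 effector targets at that level, Cxcr3 (22.0 and 9.96 RPKM), Gzma (86.1 and 41.5) and Klrg1 (14.2 and 0.001, the lowest value the file gives) were lower in the library labelled KO and Cx3cr1 (6.27 and 14.5) was higher. Of 7 inhibitory receptors none passed either way.

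In the antibody libraries, Control had the fewest genes detected. Eomes, Tbx21 and Prdm1 were all listed at 0 FPKM there, as was Ikzf2, and Havcr2, which encodes Tim-3, was at 0.19 against 174 to 213 in the 3 others. Control had 5752 genes at 1 or more, against 6972 in anti_B7S1, 8640 in anti_PD1 and 6913 in combo, and listed the housekeeping gene Gusb at 0, as combo did Tbp. A value of 0 in either can therefore be a failed estimate, and no difference is given against it. CD8 T cell markers were less uneven, at 3862, 4071, 4037 and 5824 FPKM in the order Control, anti_B7S1, anti_PD1 and combo, which the next values keep. The part that these differences between libraries play in the results below was not tested.

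Id2 measured 328, 1082, 1586 and 1587 FPKM, so each treated library was above Control. Id3 measured 59.9, 24.3, 0.65 and 0.24 FPKM and Tcf7 73.8, 85.2, 9.96 and 2.5. The ratio of Id2 to Id3 was 5.47, 44.6, 2439 and 6614. The 2 libraries titled anti_PD1 and combo thus had both the highest Id2 and the lowest Id3 and Tcf7.

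Tbx21 was listed at 0, 61.5, 36.6 and 40.3 FPKM, present in all 3 treated libraries. Eomes was listed at 0, 0.08, 13.3 and 0.21 FPKM, so anti_PD1 was alone in holding it above 1. Prdm1 was listed at 0, 18.1, 23.3 and 4.07 FPKM, lower in combo than in either antibody library.

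Tox measured 86.7, 345, 169 and 292 FPKM, highest in the libraries with B7S1 antibody. Its relative Tox2 was at 29.8 FPKM in combo and at most 0.03 in the others. Bhlhe40 measured 1157, 1998, 1923 and 2018 FPKM and was the most abundant member in each of these libraries, with Control lowest.

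Batf measured 15.9, 422, 99.6 and 52.0 FPKM, highest in anti_B7S1. Irf4 measured 23.1, 20.01, 7.27 and 9.68 FPKM, lowest in anti_PD1 and combo. Its relative Irf8 measured 82.2, 54.3, 397 and 248 FPKM, highest in the same libraries. Ikzf3 measured 14.9, 35.6, 28.3 and 98.3 FPKM, highest in combo, and Zeb2 was at 4.46 in anti_PD1 and at most 0.16 in the others.

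By the same rule of 1 in log2 and 5 FPKM, 56.3% to 68.0% of the genes that reached 5 FPKM differed in each of the 5 pairs compared. Against Control, anti_B7S1 had 6 members higher (Tox, Tbx21, Prdm1, Id2, Batf and Ikzf3), where 37.9% of genes were. In anti_PD1 5 were higher (Eomes, Tbx21, Prdm1, Id2 and Batf), where 43.8% of genes were, and Irf4 was lower, where 23.8% were. In combo 5 were higher (Tox, Tbx21, Id2, Batf and Ikzf3), where 40.1% were, and Irf4 was lower, where 28.0% were. Control lists Tbx21, Prdm1 and Eomes at 0, so their place among the higher members rests on that 0. These 3 comparisons share the Control library. Of the 7 stem-like counterparts at that level, 6 were lower than Control in anti_PD1 and 6 in combo (Tcf7, Lef1, Bach2, Bcl6, Foxo1 and Klf2 in each), and of 8 in anti_B7S1 3 were lower and 1 higher. Of the effector targets, 8 of 10 were higher in anti_B7S1, 8 of 9 in anti_PD1 and 6 of 9 in combo, with Gzmb at 0.04 FPKM in Control and at 788, 1716 and 257 in anti_B7S1, anti_PD1 and combo.

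Between treated libraries fewer members differed. Combo had Ikzf3 above anti_PD1, where 23.6% of genes were higher, and Eomes and Prdm1 below it, where 32.7% were lower. It had Ikzf3 above anti_B7S1, where 33.3% were higher, and Prdm1 and Batf below it, where 30.8% were lower. Id2 differed by 0.0015 between combo and anti_PD1 and by 0.55 between combo and anti_B7S1, and Bhlhe40 by 0.07 and 0.01.

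**Figure D5:**
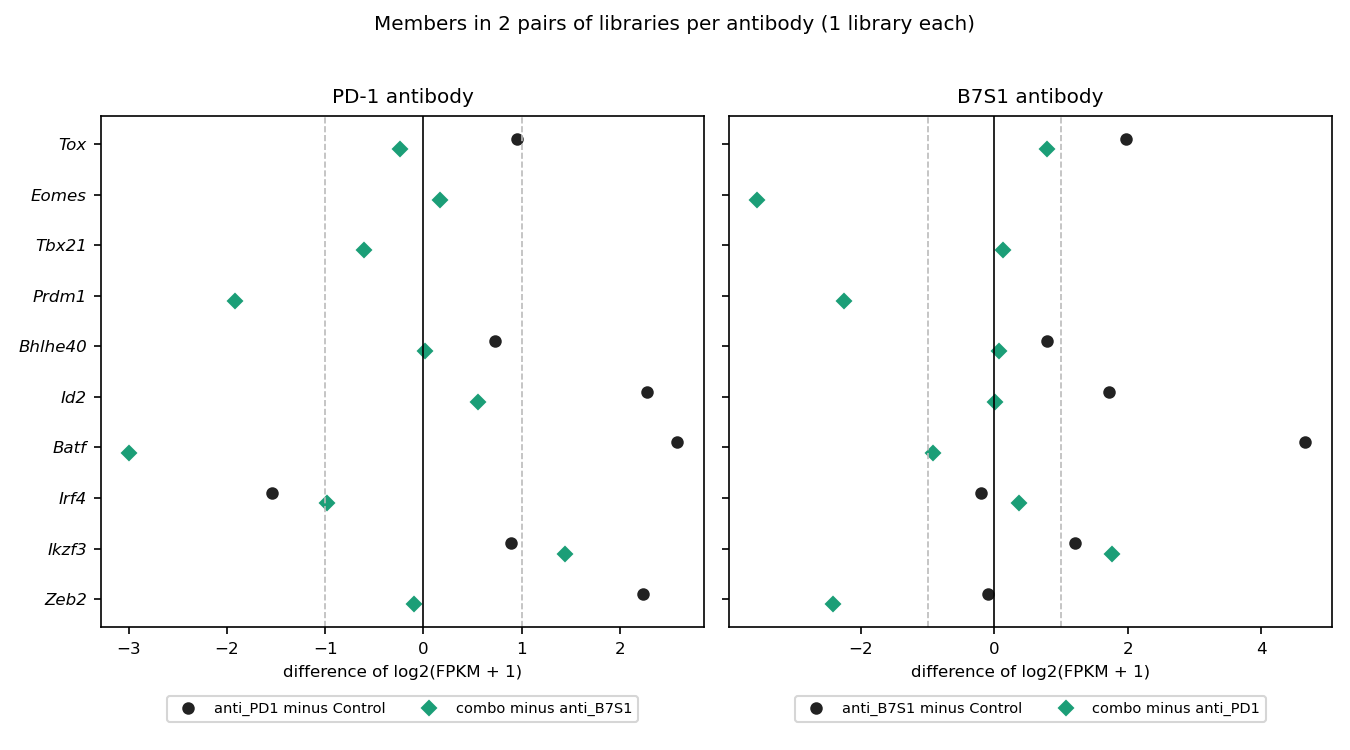
Differences of log2(FPKM + 1) in pairs of single libraries that share no library, for the PD-1 antibody (left) and the B7S1 antibody (right), with dashed lines at 1 either way. Eomes, Tbx21 and Prdm1 have no point against Control, which lists them at 0. For Batf the pair with Control lies to the right of 0 and the other pair to the left in both panels, while Ikzf3 lies to the right in all 4 pairs.

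Each antibody can be read in a pair without and a pair with the other antibody. For the PD-1 antibody, Id2 was higher by 2.27 and 0.55 and Ikzf3 by 0.89 and 1.44, and Irf4 was lower by 1.54 and 0.98. For the B7S1 antibody, Tox was higher by 1.98 and 0.79 and Ikzf3 by 1.21 and 1.76. Batf took opposite signs in the 2 pairs of both antibodies. With 1 library per group none of these differences has a replicate check.

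Members were also compared with each other over the 9 sorted libraries. On log2(FPKM + 1), Tox correlated with Bhlhe40 at 0.977 and with Eomes at 0.944, and Eomes with Bhlhe40 at 0.943 (Pearson, n = 9 libraries). Tbx21 correlated with Irf4 at 0.903. Id2 correlated with Prdm1 at 0.81, with Tox at 0.60, with Eomes and Bhlhe40 at 0.58 each, with Zeb2 at -0.002, with Tcf7 at -0.82 and with Id3 at -0.69. These libraries share tables, populations and unequal CD8 marker levels, so the correlations describe these libraries only.

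Likeness was ranked over 6200 genes whose mean reached 5 FPKM. The profile most like that of Id2 was Ifng at 0.985, the interferon that effector cells secrete, and next Cd3g at 0.978. Tox was most like Sp110 (0.981) and Ndfip1 (0.979), Eomes like Tbc1d10c (0.987) and Il10rb (0.984) and Bhlhe40 like Selplg (0.992) and Paf1 (0.991). Tbx21 was most like Xdh (0.972) and Traf4 (0.966), Prdm1 like Zfp52 (0.949) and Cir1 (0.943), and Batf like Decr1 (0.979) and Tnfsf4 (0.964). Irf4 was most like Usf1 (0.986) and Sh3gl1 (0.983), Ikzf3 like Sars (0.977) and Aes (0.977), and Zeb2 like Bak1 (0.919) and Itch (0.890).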

How the data were processed

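RNA was measured in 15 libraries made with an ultra low input kit. The deposited RPKM values of the bulk pair and FPKM values of the other libraries were computed by the authors; HISAT2, Bowtie2, RSEM and mm10 are named in the submitters' processing notes, with no version or role. The 10 members, the gene lists and the tests were chosen with earlier results of these data known. Symbols listed more than once in a table were left out. Here, differences were taken on log2(value + 1). limma 3.58.1 (R 4.3.3) with a mean-variance trend was fitted to genes present in all libraries entering the model, with a mean of at least 1 FPKM, tested on simulated data first, with Benjamini-Hochberg adjustment over all genes tested and calls at an adjusted p under 0.05. Population comparisons used the 6 wild-type libraries, and the genotype comparison used all 9 sorted libraries with population as a covariate. Wild-type libraries with the same number deviated together (correlations 0.4005, 0.2687 and 0.1932 over 10411 genes), which a shift shared by a table would also give. No label pairs them. A fit blocked on the number, which is also a block by table, is reported beside each call that it alters. Pairs of single libraries were compared by a difference of at least 1 and a higher value of at least 5, with no test. Bulk RPKM ratios fitted whole reads for 88.6% of 5432 genes under 1 RPKM (tolerance 5e-08), against 0.092% with a shifted total, and the totals gave whole implied lengths for 79.5% of 400 genes. The members' read counts are inferred, with a common factor chosen by annotated transcript length, a choice that these checks do not cover. All 10 members are named with their values. Beside them, the text may name Id3, Tcf7, Batf3, Irf8, Ikzf2, Zeb1 and Tox2, genes of the 5 lists that passed a threshold or had the largest differences, and for each member the 2 most correlated genes. Alternatives tried were another pseudocount, no low filter, no trend, other scalings, the replicate block, 1 table only and leaving out each library, and some were added after the data were seen.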

Additional observations from a re-analysis of the deposited data

Results flagged for a closer look

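Several members took opposite signs in pairs of libraries that bear on the same factor. Each pair compares single libraries, so none of the differences between pairs was tested. Eomes, Tbx21 and Prdm1 are listed at 0 in Control, so no difference against it is given for them. All are on the log2(value + 1) scale.

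For the PD-1 antibody, the pair without B7S1 antibody (anti_PD1 minus Control) and the pair with it (combo minus anti_B7S1) were compared. Tox was at 0.95 and -0.24, a change of -1.19. Batf was at 2.58 and -2.997, a change of -5.57. Zeb2 was at 2.23 and -0.10, a change of -2.33, with levels of at most 4.46 FPKM.

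For the B7S1 antibody, the pair without PD-1 antibody (anti_B7S1 minus Control) and the pair with it (combo minus anti_PD1) were compared. Irf4 was at -0.20 and 0.37, a change of 0.57. Batf was at 4.65 and -0.93. Its change of -5.57 is the same quantity as above, because both readings use the same 4 libraries.

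The libraries labelled KO differed from wild type in opposite directions in the sorted cells (mean over 3 populations, within the table of wild type 2) and in the bulk pair. Ikzf3 was at -1.60 sorted and 1.83 in bulk, a gap of -3.44. Tox was at -1.43 and 0.42, a gap of -1.85, Batf at -1.09 and 0.17, a gap of -1.26, and Id2 at -0.86 and 0.09, a gap of -0.95. The bulk libraries were in another unit, were sorted for OVA specificity and had 1 library per group, and these differences were not tested.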

How the results depend on the processing

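Genes called, against 0, 6, 0 and 0 as reported for TIM-3_SP minus DN, B7S1R_SP minus TIM-3_SP, B7S1R_SP minus DN and labelled KO minus wild type, varied with the processing; where no value shows the cause, the cause was not tested. For TIM-3_SP minus DN, median scaling gave 2, the replicate block 26, all 9 libraries 7, and all 9 with the block 24. For B7S1R_SP minus TIM-3_SP, a pseudocount of 0.1 gave 2, no low filter 0, unlisted genes as 0 gave 3, no trend 0, the replicate block 65 (34 higher, 31 lower), all 9 libraries 24 and all 9 with the block 165. For B7S1R_SP minus DN the replicate block gave 8 and all 9 with the block 1. For labelled KO minus wild type, a pseudocount of 0.1 gave 2, 1 with the replicate block by table, 10 within a single table, the total without globin 5, and TIM-3_SP and DN only 2. In the bulk pair, no minimum level gave 2450 genes against 1389.

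Scaling to CD8 T cell markers, added after the data were seen, gave 2 for B7S1R_SP minus TIM-3_SP. With the replicate block it gave 34, 375 (356 higher, 19 lower) and 58 (57 higher) in the 3 population comparisons, and over all 9 libraries 51, 3719 (3645 higher, 74 lower) and 14 (13 higher). With 1 table it gave 7 for labelled KO. Keeping only the B7S1R_SP library of set 1, with the block, gave 23, 13 (11 lower) and 1. CD8 marker scaling turned Tox in B7S1R_SP minus TIM-3_SP to 0.33, to 0.33 with the block and to 0.24 over 9 libraries, and Tox in B7S1R_SP minus DN to 0.044 over 9 libraries. In labelled KO minus wild type it turned Irf4 to 0.074 within 1 table. Zeb2 there turned to 0.39 with median scaling, 0.042 with quantile normalization, 0.040 with the replicate block by table, 0.040 within a single table, 0.23 with CD8 marker scaling and 0.48 with that scaling within 1 table.

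Leaving out each library in turn gave 0 to 1 calls for TIM-3_SP minus DN (1 without DN wild type 1) and 0 to 7 for B7S1R_SP minus TIM-3_SP. The latter fell to 0 without TIM-3_SP wild type 1, B7S1R_SP wild type 2 or TIM-3_SP wild type 2, and to 1 without B7S1R_SP wild type 1. B7S1R_SP minus DN and the interaction stayed at 0. Labelled KO minus wild type ran from 0 to 737, with 737 without B7S1R_SP wild type 2, 4 without TIM-3_SP wild type 2, 2 without B7S1R_SP wild type 1 and 1 without DN wild type 1. Tbx21 in TIM-3_SP minus DN ran from -1.20 to 2.64 and Irf4 from -0.57 to 1.23. In B7S1R_SP minus TIM-3_SP, Tbx21 ran from -3.75 to 0.084 (above 0 without TIM-3_SP wild type 1) and Bhlhe40 from -3.32 to 0.57 (above 0 without B7S1R_SP wild type 2), while Tox ran from -1.74 to -0.037 (without B7S1R_SP wild type 2), Eomes from -2.24 to -0.36 (without TIM-3_SP wild type 1), Prdm1 from -2.63 to -0.98 (without B7S1R_SP wild type 2) and Id2 from -3.13 to -2.43. In labelled KO minus wild type, Prdm1 ran from -1.49 to 0.092 and Zeb2 from -0.60 to 0.080. A lone library left in a group was assumed to vary like the others. The replicate block changed no member's call other than that of Id2. Of the single-member values under alternatives, 466 kept direction and call and 20 turned. The depth of the FPKM libraries is unknown.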
